A study of Anguilla anguilla with 45 samples.

Results

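The comparison set the caudal fins of 5 unexposed European eels, Anguilla anguilla, kept in the laboratory against the caudal fins of 5 wild eels caught at Certes. The arrays were chosen by their titles, 10 of the 45 in the series, and contigs with at least 3 values in each group were compared, 785 of the 992 on the array. A contig is an assembled transcript sequence, and the files name it only by number. None of the 992 contig names matched the eel gene table used here, so genes, pathways and marker lists could not be named or tested. The tissue was only set beside the liver arrays.

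The control fish are numbered 6 to 10 and came from the series' laboratory contamination experiment, in which they received no agent. The Certes eels are numbered A201, A203, A205, A207 and A210 and are labelled only by their natural site. Age, size, sex, rearing and the contaminant load of either group are not given in the labels. By its title, the study sought traces of contamination with cadmium (Cd) or polychlorinated biphenyls (PCBs) in eels sampled without killing them. Each fin cDNA carried the dye Cy3 and was hybridised with 1 common Cy5-labelled pool from 30 wild Certes eels, whose tissue is labelled as liver. The other groups used below are fins of laboratory eels given 50 or 300 ng/g PCBs in the diet or held in water with 4 µg/L Cd, fins of wild Gironde and Garonne eels, and livers of control and Cd eels, with 5 arrays each. The livers carry the same fish numbers as the fins of their group. Each array has a fish number of its own within its tissue, and nothing else in the labels says whether they shared a tank or catch. Each eel was counted as a replicate, so p-values rest on the spread between eels and not between tanks, catches or sites. Where the spread is taken from all 35 fin arrays, most of these eels are outside the comparison.

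A tail fin consists of skin over bony rays with blood vessels and nerves between them, and it regrows, so a clip can be taken from a living fish. In a common-reference design every array holds the same pool beside 1 sample, and 2 samples are compared through their ratios to that pool. A log2 ratio of 1 is a doubling against the pool. Ratios are read as sample over pool, which is likely from the dyes but is not stated with the values. If they run the other way, every higher and lower below is exchanged. In whole tissue a lower ratio from fewer cells of a type and one from less RNA per cell cannot be told apart. Origin, rearing and site separate the groups together, so their parts in any difference cannot be told apart.

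The arrays held values for unequal numbers of contigs. Control fish 6, 7, 8, 9 and 10 had values for 987, 870, 799, 731 and 848 contigs. Certes eels A201, A203, A205, A207 and A210 had 935, 866, 861, 640 and 598. The control mean was 847 ± 94.7 (SD, n = 5) and the Certes mean 780 ± 151, with ranges that overlapped (exact two-sided permutation p = 0.421, adjusted p = 0.632 over 3 such tests, smallest possible p 0.0079). The spread of ratios within an array, the median absolute deviation (scaled to match an SD) over the 530 contigs with a value on all 10 arrays, was 0.894 ± 0.185 in controls and 0.994 ± 0.172 in Certes (exact permutation p = 0.413, adjusted p = 0.632). Contigs beyond 4 on the log2 scale in either direction made up 4.53 ± 1.71% of an array's values in controls and 4.61 ± 1.52% in Certes (exact permutation p = 0.913, adjusted p = 0.913). None of these 3 measures separated the groups beyond the spread between eels.

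Control fish 6 and Certes eel A201 stood closer to each other than their labels place them. Across contigs their ratios correlated at r = 0.848 (Pearson), the second highest of the 45 pairs, and at 0.908, the highest, over the 530 complete contigs. By Spearman's rank correlation the pair stood less apart, at 0.768, rank 6 of the 45. The correlations that follow are Pearson's. Fish 6 correlated at 0.727 on average with the 5 Certes arrays and at 0.592 with the other 4 controls. Fish 8 lay at 0.706 with Certes and 0.681 with its own group, and fish 7, 9 and 10 were closer to their own group, at 0.626, 0.663 and 0.657 against 0.536, 0.590 and 0.593. Every Certes array was closer to its own group, at 0.753 to 0.809 against 0.610 to 0.642. The placement changed with the contigs compared. Over the complete contigs fish 6 was closer to the controls (0.800 against 0.765) and A201 was closer to the controls than to the other Certes eels (0.825 against 0.773). A left-out array was also placed by the contigs with an unadjusted p under 0.05 in the fit of the 9 others, as nearer to the control or the Certes mean. A201 was nearer to controls in 65.7% of these contigs, against 6.94 to 36.8% in the other Certes eels, and fish 6 in 54.5%, against 58.6 to 89.4% in the other controls. Whether the labels of these 2 arrays are right was not tested, and they were kept as given. These 2 arrays also held the most values, and 8 contigs had a value on them and on none of the other 8 arrays. A pair of arrays had a mean r of 0.773 within Certes, 0.644 within controls and 0.631 between the groups. Without fish 6 the control mean was 0.678 and the mean between groups 0.606. These correlations are across contigs, which are not independent replicates, and all arrays share the reference pool, so they are given without a test.

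**Figure D1:**
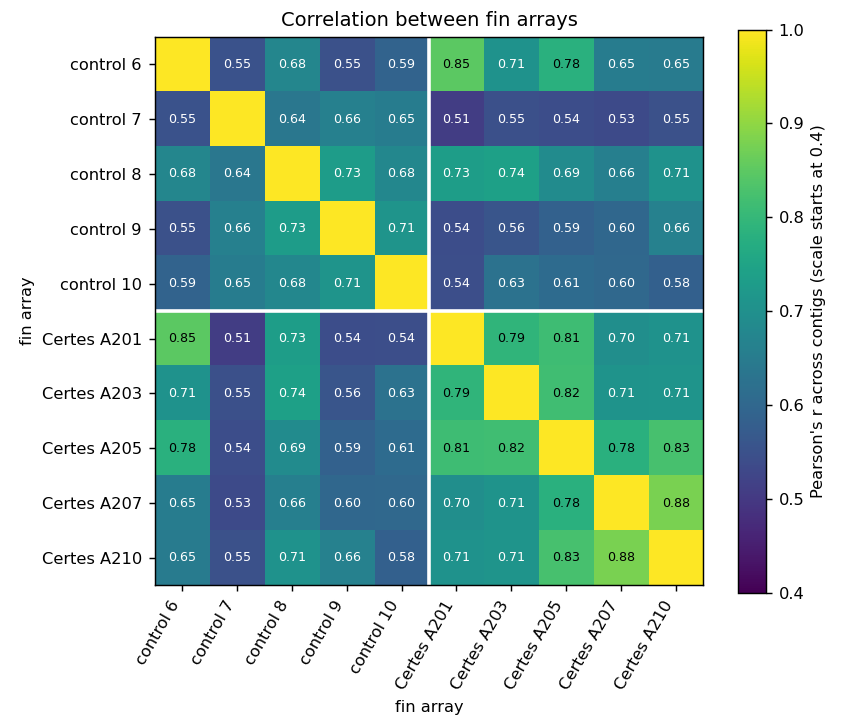
Pearson's correlation between the log2 ratios of each pair of the 10 fin arrays, across contigs with a value on both, with controls and Certes eels divided by white lines and the colour scale starting at 0.4. Control fish 6 shows 0.85 with Certes A201 and 0.55 to 0.68 with the other controls, and Certes A207 and A210 show the highest value, 0.88.

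All 10 arrays correlated weakly with the liver arrays. The pool is itself labelled as liver, so a low correlation with the livers is not by itself a check of tissue. Their mean correlation with the control livers ran from -0.033 (A210) to 0.157 (fish 6) and with the Cd livers from -0.072 (A207) to 0.165 (fish 9). With the wild Garonne fins it ran from 0.472 in fish 6 to 0.756 in A210. The 3 Certes arrays with the most values were nearer to the control livers, at 0.081 to 0.148, than A207 and A210, at -0.015 and -0.033.

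The control and Certes means of the 785 contigs correlated at 0.836 across contigs, as a description of ratios that share 1 reference pool. The mean lay below -4 in 13 contigs of controls and 14 of Certes, 11 of them in both, and above 4 in 5 and 4, with 2 in both. Tested against the pool with limma in 1 fit of all 35 fin arrays, 54 contigs (6.88%) were above and 58 (7.39%) below it in controls at an adjusted p of 0.05, and 62 (7.9%) were above and 74 (9.43%) below it in Certes. The mean of both groups was above it in 120 (15.3%) and below it in 104 (13.2%). These tests set fin against a pool labelled as liver and take that pool as fixed, without a spread of its own.

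The lowest complete contig, contig_2266, was at -8.45, -7.47, -7.63, -7.99 and -7.72 in control fish 6 to 10. In Certes eels A201 to A210 it was at -8.41, -8.15, -8.02, -7.59 and -8.04. All 10 fins lay within 1 log2 unit of each other, and the difference between the groups was 0.19 with a 95% interval of -0.40 to 0.78 from these 10 arrays. The next lowest, contig_16133, ran from -8.05 (fish 9) to -4.98 (fish 6) in controls and from -6.13 to -5.41 in Certes. Its mean was -6.56 ± 1.11 (SD, n = 5) against -5.69 ± 0.30, and the control range enclosed that of Certes. The 50 ng/g PCB fins lacked these low ratios, at 0.64 ± 0.68 in contig_2266 and -0.48 ± 1.24 in contig_16133 (SD, n = 5). Control livers averaged 0.59 and 0.39 in these contigs, Garonne fins -8.00 and -6.17, and 300 ng/g PCB fins -8.03 and -6.68. Cd fins averaged -5.19 ± 5.14 (n = 4) and -3.74 ± 3.03 (n = 5), with ranges of -8.07 to 2.51 and -6.06 to 1.55. Their lowest arrays thus lay within the control range of each contig. Gironde fins had no value for either contig. The reason was not tested. At the other end contig_23259 lay between 2.62 and 3.60 in controls and between 2.50 and 4.31 in Certes. The second highest, contig_16181, ran from 3.47 to 4.58 in controls and from 1.55 to 3.96 in Certes. Its means of 4.07 ± 0.51 and 2.53 ± 0.99 differed by 1.54, with ranges that overlapped through eel A201 and an adjusted p of 0.807 (limma, 35 arrays).

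**Figure D2:**
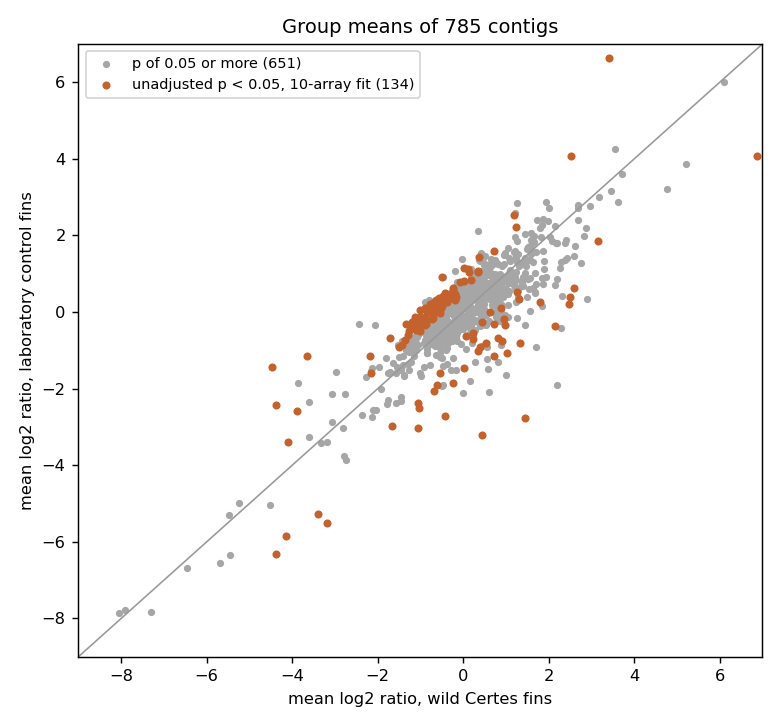
Mean log2 ratio of each of the 785 contigs in laboratory control fins (vertical) against wild Certes fins (horizontal), with the line of equal means. Points follow the line from about -8 to above 4, and the 134 contigs with an unadjusted p under 0.05 in the fit of the 10 arrays lie on both sides of it, 92 above and 42 below.

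No contig differed between laboratory control and Certes fins past the threshold in the fit of 35 arrays or of 10, and 5 did when arrays were weighted, as given further on. With the spread of each contig estimated from all 35 fin arrays, 0 of 785 contigs (0%) reached a limma adjusted p of 0.05, the smallest adjusted p was 0.533, and 31 (3.95%) had an unadjusted p under 0.05, 9 higher and 22 lower in controls. With the spread estimated from these 10 arrays alone, 0 contigs (0%) passed again and the smallest adjusted p was 0.185. Here 134 contigs (17.1%) had an unadjusted p under 0.05, 92 higher and 42 lower in controls, and 25 of them were among the 31. On the log2 scale these 134 differences were 0.51 to 4.20 in size, and their median size was 0.89. Without A205 the 10-array count was 82 of 657 contigs and without A207 it was 84 of 782. Without both fish 6 and A201, 0 of 636 contigs passed in either fit, and 29 (35 arrays) and 129 (10 arrays) had an unadjusted p under 0.05.

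Both fits give each contig the same difference and differ in its error. The median standard error was 0.73 from 35 arrays and 0.39 from 10. The median contig SD was 0.57 in control and 0.50 in Certes fins, 0.66 in Garonne and 0.69 in 300 ng/g PCB fins, and 1.09, 1.08 and 1.06 in Gironde, 50 ng/g PCB and Cd fins. When the Gironde, 50 ng/g PCB and Cd fish 45 fins were left out of the larger fit, 104 contigs had an unadjusted p under 0.05 and 0 passed.

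**Figure D3:**
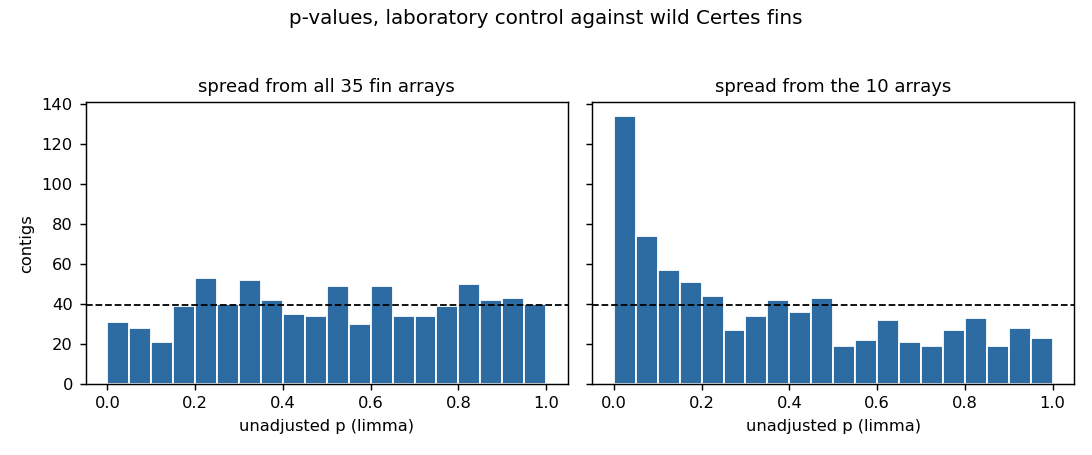
Number of contigs by unadjusted limma p, in steps of 0.05, with the spread taken from all 35 fin arrays (left) and from the 10 arrays compared (right); the dashed line is an even distribution of the 785 contigs. The lowest step holds 31 contigs on the left and 134 on the right.

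Most differences were under 1 in size, and the arrays bound the size of many. Over the 785 contigs the difference, control minus Certes, had a median of 0.11, quartiles of -0.44 and 0.52, and extremes of -4.20 and 3.22. It was under 0.5 in size in 401 contigs, over 1 in 110 and over 2 in 23. The 95% interval from the 10 arrays lay within 2 log2 units on either side of 0 for 584 contigs (74.4%) and within 1 for 167 (21.3%). From 35 arrays these counts were 408 and 4. For the other contigs a difference of that size is not bounded by these arrays.

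In 40 of the 530 contigs with a value on all 10 arrays (7.55%), the control and Certes ranges did not overlap. In 32 of the 40 all controls were higher and in 8 all were lower. The differences were 0.40 to 2.25 in size (median 0.88). Of the 40, 37 were among the 134, which is no separate result because both counts rest on the same values. The balance of directions moved with the centre of the arrays. When each array was recentred on these 530 contigs, the median difference over all contigs went from 0.11 to -0.08, 22 contigs did not overlap, 10 higher and 12 lower, and 104 had an unadjusted p under 0.05 in the 10-array fit, 38 higher and 66 lower. Scaling the arrays gave 29 higher and 7 lower without overlap, and quantile normalization 39 and 5. In the 10-array fit these gave 79 higher and 40 lower, and 111 and 30, with an unadjusted p under 0.05. In the 10-array fit and in the count without overlap, more contigs were thus higher in controls as deposited, scaled and quantile normalized. After recentring more were lower in both. The fit of all fin arrays differed, again by contigs with an unadjusted p under 0.05. It gave 9 higher and 22 lower as deposited, 6 and 23 scaled, and 5 and 28 recentred. Quantile normalization gave 19 higher and 13 lower there, and array weights 62 and 41.

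Of the contigs with the smallest p in the 35-array fit, both that were lower in controls lay above the pool in Certes fins. contig_20900 was at 1.10, 0.88, 1.12, 0.26 and -0.22 in control fish 6 to 10. It was at 1.40, 1.88, 2.62, 2.59 and 4.43 in A201 to A210. All Certes eels were above all controls, with A201 nearest to them. The means of 0.63 ± 0.59 and 2.58 ± 1.15 (SD, n = 5) differed by -1.96 ± 0.56 (SE, limma adjusted p = 0.533 from 35 arrays and 0.185 from 10). contig_35081 was measured in 3 eels of each group, at 0.49, -0.74 and -0.88 in fish 6, 9 and 10 and at 2.25, 1.50 and 2.68 in A201, A203 and A205. The groups did not overlap, and the difference was -2.52 ± 0.70 (SE, limma adjusted p = 0.533 from 35 arrays and 0.185 from 10).

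Both that were higher in controls lay below the pool, and further below it in Certes. contig_11934 was at -0.75, -1.37, -2.40, -2.00 and -0.65 in controls. In Certes it was at -1.52 and -1.50 in A201 and A203 and at -6.76, -6.61 and -6.00 in A205, A207 and A210. The first pair of Certes eels lay within the control range and the other 3 more than 3 log2 units below it. The difference of the means was 3.04 ± 0.97 (SE, limma adjusted p = 0.615 from 35 arrays and 0.230 from 10). contig_4710 was at -0.41, -1.20, -2.04, -1.51 and -0.55 in controls and at -4.19, -2.34 and -4.42 in A201, A203 and A210. The groups did not overlap, and the difference was 2.51 ± 0.85 (SE, limma adjusted p = 0.682 from 35 arrays and 0.185 from 10).

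The contigs with the smallest p in the 10-array fit, named after their values were seen, had smaller differences than the 4 above. contig_9635 was at -2.73, -1.75, -3.46, -2.39 and -1.83 in controls and at -3.31, -4.41, -4.78, -5.04 and -4.30 in Certes. Only fish 8 and A201 broke the separation, and the difference was 1.93 ± 0.42 (SE, 10 arrays). contig_18019 was at 0.41, 0.36, 0.01, -0.21 and -0.04 in controls and at -0.73, -0.87, -1.02, -1.05 and -0.53 in Certes, without overlap. Its group SDs were 0.27 and 0.22, and its difference of 0.95 had a standard error of 0.23 from 10 arrays and 0.61 from 35. contig_27263 was at -0.33, -1.33, -0.90, -0.24 and -0.56 in controls and at 0.20, 0.74, 0.59, 1.70 and 0.80 in Certes, without overlap. Its mean lay below the pool in controls and above it in Certes, a difference of -1.48 ± 0.33 (SE, 10 arrays). contig_23303 was at -1.75, -2.23, -1.54, -1.91 and -2.84 in controls and at -1.09, -0.93, -0.86, 0.02 and -0.61 in Certes, without overlap, a difference of -1.36 ± 0.32 (SE, 10 arrays). The limma adjusted p was 0.185 for each of these 4 contigs from 10 arrays and 0.852 to 0.994 from 35.

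**Figure D4:**
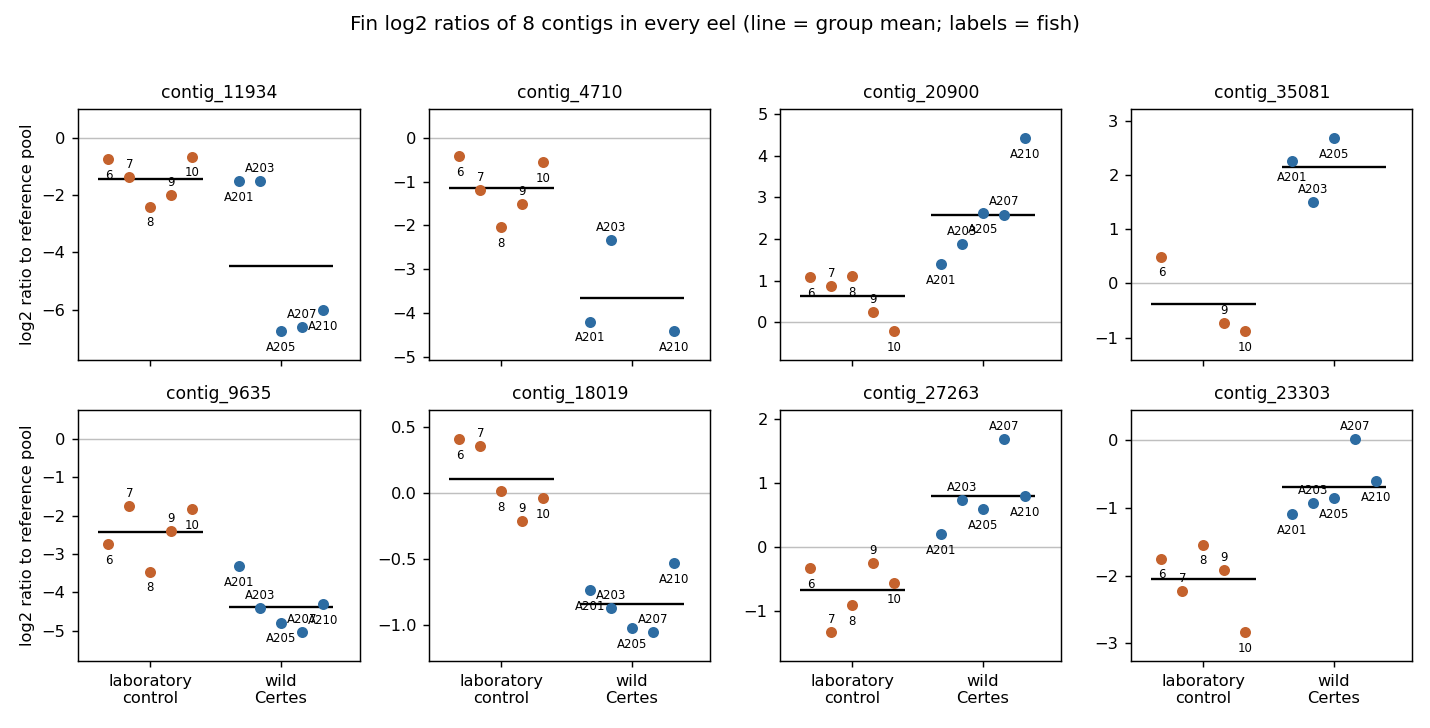
Log2 ratio to the reference pool of 8 contigs in every laboratory control eel (orange) and every wild Certes eel (blue) with a value, with the group mean as a line and fish numbers beside the points; each panel has its own vertical axis. The ranges of the groups do not overlap in contig_4710, contig_20900, contig_35081, contig_18019, contig_27263 and contig_23303, and they overlap in contig_11934 and contig_9635.

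Weighting each array by its own agreement with its group let 5 of the 785 contigs pass, 1 higher and 4 lower in controls. Named after their values were seen, these were contig_9635 at 1.91, contig_38621 at -2.10, contig_17189 at -2.21 and contig_35081 at -2.48 (limma adjusted p = 0.0284 each) and contig_38645 at -4.08 (limma adjusted p = 0.0351). contig_38645 was at -0.08, -1.62, -5.68, -2.83 and -3.59 in controls and at -0.21, 0.90, 1.95 and 3.13 in A201, A203, A205 and A207, with fish 6 and A201 side by side between the groups. contig_17189 had Certes values in A201, A203 and A205 alone, at 0.83, 1.32 and 1.85, above all 5 controls. As given above, contig_35081 had its Certes values in the same eels. Their arrays weighed 2.15, 2.63 and 3.74, against 1.17 and 1.05 for A207 and A210. In contig_38621 the groups overlapped, with fish 9 at 0.33 above A203 at -0.07. With weights on the 10 arrays alone 0 contigs passed.

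Values were missing unevenly across eels, with the fewest values in A207 and A210. The mean difference of 67 values per array, which did not pass its test, was 32 without A207, 32 without fish 6 and 21.5 without A210. Of the contigs left out, 101 had under 3 values in Certes only, 41 in controls only and 65 in both. Among all 992 contigs 262 had more control than Certes values, 89 the reverse and 641 equal numbers. In 6 contigs all 5 controls and no Certes eel had a value, and in 0 contigs the reverse. One of the 6, contig_17437, was at 1.19, -0.40, -3.52, -2.37 and -0.68 in control fish 6 to 10. Garonne fins had values for it in all 5 eels, with a mean of -5.01 ± 2.38 (SD), 3.59 ± 0.98 (SE) below the 300 ng/g PCB and Cd fins (limma adjusted p = 0.0187). Gironde fins went the other way, at 0.03 ± 0.47 in 5 eels, and over all 5 other groups laboratory minus wild was 1.76 ± 0.73 (SE, limma adjusted p = 0.140). Another, contig_15464, was at 0.58, -0.59, -0.94, -5.83 and -1.42. In both, fish 6 had the highest ratio. The other way, contig_20211 was at -6.93, -9.84, -7.65, -6.50 and -7.09 in the 5 Certes eels and, among controls, had a value in fish 6 alone, at -7.18. contig_5610 was at -7.60, -6.66, -6.75, -5.76 and -6.81 in Certes and at -7.43 in fish 6 alone. Of all contigs 35 had a value in fish 6 and in no other control, against 0, 0, 1 and 1 for fish 7, 8, 9 and 10. With values for 987 of the 992 contigs, fish 6 holds nearly every contig that has only 1 control value. Likewise 47 contigs had a value in A201, the Certes array with the most values, and in no other Certes eel. The minimum of 3 values bears on size as well: the 150 contigs with exactly 3 values in the smaller group had a median difference of 0.67 in size, and the 91 with exactly 2, left out here, one of 1.42.

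The spread within a group was larger in controls for 446 of the 785 contigs (56.8%). The contigs with the most unequal spread had group means within 1 log2 unit of the pool. contig_3075 ran from 0.20 to 0.39 in Certes and from 0.28 to 1.86 in controls, where fish 9 and 10 stood above the rest. contig_155 ran from -0.22 to 0.10 in Certes and from -1.78 (fish 7) to 1.14 (fish 10) in controls. In the other direction contig_6438 lay between 0.05 and 0.18 in all controls and between -0.39 and 1.23 in Certes. contig_10692 lay between 0.89 and 1.12 in controls and between -0.11 (A210) and 2.27 (A201) in Certes. The group means of these 4 contigs differed by at most 0.55.

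The other wild and laboratory fins were set beside the direction of these differences. Between the 3 exposed laboratory groups and the 2 other wild groups, 27 of 356 contigs (7.58%) passed the threshold. The mean of the laboratory groups minus the mean of Gironde and Garonne had the sign of control minus Certes in 39 of 80 contigs of the 134 (48.8%), against 51.5% of all 334 shared contigs. This grouping includes both the Gironde fins and the 50 ng/g PCB fins. Shares with Garonne or Gironde as the only wild group, both without the 50 ng/g PCB fins, are given below. The part of the 50 ng/g PCB fins on their own was not tested.

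Narrower groupings gave other shares. Set against the wild Garonne fins, the 300 ng/g PCB and Cd fins shared 102 of the 134 contigs with at least 3 values per group. In 79 of the 102 (77.5%) laboratory minus wild had the same sign as control minus Certes, against 272 of all 438 shared contigs (62.1%). No array is in both comparisons, all carry the same reference pool, and the fish of these 2 laboratory groups were exposed. Leaving out each of the 25 arrays in turn gave 70.3% (without control fish 6) to 82.2%, and recentring gave 57 of 63 (90.5%) against 69.6% of all. Among the 102 contigs the sign was kept in 68 of the 90 higher in controls and in 11 of the 12 lower. Distance from the pool moved with it: the control mean was nearer to 0 than the Certes mean in 70 of the 102, and 58 of these kept the sign, against 21 of the other 32. The part of that distance in the shared signs was not tested.

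With Gironde in place of Garonne the sign was kept in 40 of 108 contigs (37.0%), against 49.8% of all. Seen array by array, a value counts as nearer to controls when it lies on the control side of the midpoint between the group means. A ratio of 0 does so wherever the control mean is nearer to 0, in 85 of the 134 contigs and 414 of all 785. The part of that in the shares that follow was not tested. Of the 134 contigs, 74.8 ± 19.2% of an array's values were nearer to controls in the 300 ng/g PCB fins (SD, n = 5) and 45.2 ± 19.9% in the Garonne fins. In the Cd fins it was 64.0 ± 30.7%, with 13.2% in the lowest array, in the 50 ng/g PCB fins 59.3 ± 13.0% and in the Gironde fins 64.3 ± 11.4%. The livers lay at 72.7 ± 10.2% in controls and 77.7 ± 0.774% in Cd. Both are livers of laboratory eels, and the pool is labelled as liver. The control livers also carry the fish numbers of the control fins, which set the control mean. The liver shares are thus no separate check of laboratory against wild origin. Over all 785 contigs the group means were 63.5% in the 300 ng/g PCB fins and 49.9% in the Garonne fins. They were 54.1% in Cd, 53.4% in 50 ng/g PCB and 54.4% in Gironde fins, and 60.8% in control and 64.5% in Cd livers.

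Past the threshold, 42 of 460 contigs (9.13%) differed between the 300 ng/g PCB and Cd fins and the Garonne fins. Of the 438 contigs shared with the comparison 25 were called, and 4 of the 102 that belong to the 134 were among these 25, each in the same direction, which is no larger a share than 25 of 438. contig_4710 averaged -4.01 ± 1.58 in Garonne (SD, n = 5), -1.09 ± 1.41 at 300 ng/g PCBs (n = 5) and 0.46 ± 1.37 in 4 Cd fins. Laboratory minus Garonne was 3.70 ± 0.65 (SE, limma adjusted p = 0.000327). Certes and Garonne eels lay below all 5 controls in it, except Garonne's highest eel at -1.85. contig_11934 averaged -3.82 ± 1.57 in Garonne (SD, n = 5), and -1.56 ± 1.47 at 300 ng/g PCBs and 0.71 ± 1.92 in Cd fins (n = 4 each). Laboratory minus Garonne was 3.39 ± 0.88 (SE, limma adjusted p = 0.0115). The other 2, named after their values were seen, were contig_14486 with 1.24 ± 0.38 (limma adjusted p = 0.0331) and contig_2400 with 1.20 ± 0.39 (limma adjusted p = 0.0496). Gironde fins departed from this: contig_4710 averaged 0.52 ± 0.52 and contig_11934 0.52 ± 0.40 (n = 4) there, above every control. With Gironde and the 50 ng/g PCB fins included, laboratory minus wild was 1.46 ± 0.48 in contig_4710 (limma adjusted p = 0.0522) and 1.48 ± 0.68 in contig_11934 (limma adjusted p = 0.177). contig_23303 averaged -1.62 ± 0.77 at 300 ng/g PCBs and -1.54 ± 1.06 in Cd fins, near its control mean of -2.06, against 0.01 ± 1.01 in 3 Garonne eels. Laboratory minus Garonne was -1.59 ± 0.66 (SE, limma adjusted p = 0.143). The 50 ng/g PCB fins departed from the other laboratory fins in contig_23303, at 0.62 ± 1.52 in 3 eels, above the Certes mean, and over all 5 other groups the difference was -0.84 ± 0.46 (SE, limma adjusted p = 0.293). Garonne fins had no value for contig_20900 and contig_27263, and 1 for contig_35081, at -7.08, below every control and Certes eel. Gironde fins averaged -0.89 ± 0.68 (n = 3), -0.42 ± 0.47 (n = 4) and -0.55 ± 0.49 (SD, n = 5) in these contigs, in that order. All 3 means lay nearer to the control than to the Certes mean.

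**Figure D5:**
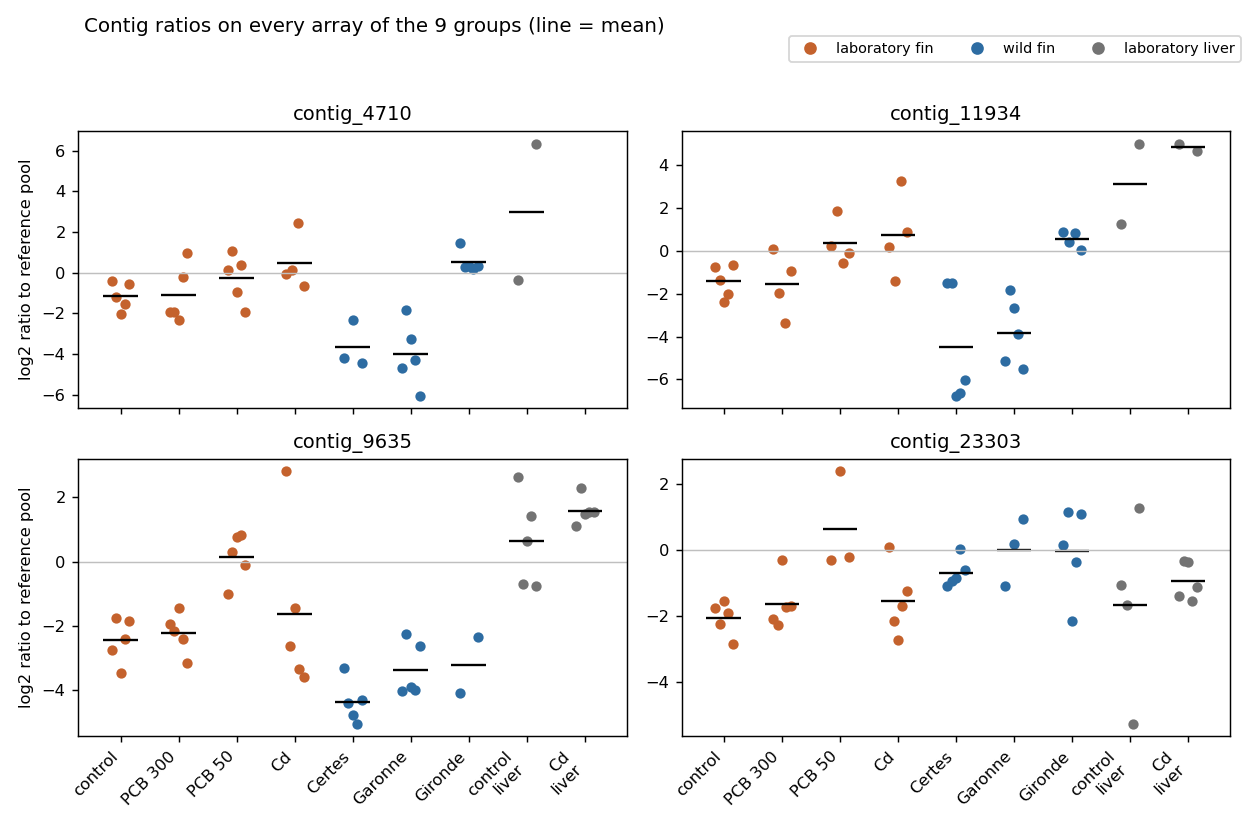
Log2 ratio of 4 contigs on every array with a value in the 9 groups of the series, laboratory fins in orange, wild fins in blue and laboratory livers in grey, with group means as lines and a separate vertical axis for each panel. In contig_4710 and contig_11934 the Certes and Garonne means lie below the control and 300 ng/g PCB means, and the Gironde mean lies above 0.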

How the data were processed

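The deposited table holds the authors' log2 ratios of 992 contigs, 1 column per array. The median of every array is 0, which shows centring by the authors; their other steps are not stated in the labels or files. Of the 10 arrays' values 18.0% are missing and were left so. A scanner table with 180 value columns was not used, because its columns carry slide numbers and no sample names.

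Group means were fitted with lmFit in limma 3.58.1 (R 4.3.3), and variances were moderated over all contigs of the table as in eBayes, on the 35 fin arrays and on the 10 compared alone. P-values are two-sided and were adjusted by Benjamini-Hochberg over all contigs tested, with a threshold of 0.05. The labels name no batch. No pair of the 10 arrays correlated below 0.508; A207 correlated at -0.305 with Gironde eel A306, and the deposited direction was kept because the labels state the dyes. No 2 arrays were counted as duplicates: fish 6 and A201 differed by a median of 0.43 over 934 contigs. Arrays have no depth, and their number limits the precision. The fits were tested on simulated data.

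Named were the 2 contigs with the smallest p in each direction, the 2 highest and 2 lowest complete contigs, those with the most unequal spread and those with the most unequal numbers of values. The members and these rules were chosen with earlier results of these data known, and no gene list could be tested.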

Additional observations from a re-analysis of the deposited data

How the results depend on the processing

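The count of contigs past the adjusted threshold was 0 in every setting run except array weights on the 35 arrays, where it was 5; the cause was not tested. The count with an unadjusted p under 0.05, 31 of 785 as reported, was 134 from the 10 arrays. It was 51 without the Gironde and 50 ng/g PCB arrays and 103 with array weights. With a minimum of 2 values it was 50 of 876, and with 5 it was 19 of 530. Settings chosen after seeing the data gave 104 without Gironde, 50 ng/g PCB and Cd fish 45 arrays, and, from the 10 arrays, 142 with array weights, 104 recentred, 119 scaled and 141 quantile normalized. Leaving out each array gave 21 to 32 from 35 arrays. The number of contigs tested also changed with the array left out. From the 10 arrays the count was 140 of 655, 126 of 658 and 82 of 657 without A201, A203 and A205. Without A207 and A210 it was 84 of 782 and 95 of 780. Without fish 6 to 10 it was 134 of 719, 101 of 741, 114 of 754, 138 of 773 and 110 of 740. Leaving out both fish 6 and A201, also chosen after seeing the data, gave 129 of 636 from the 10 arrays. Recentring turned the median difference to -0.084 in both fits and left 22 contigs without overlap, against 40. Contigs off the pool, 112 in controls and 136 in Certes, were 260 and 309 from 10 arrays and 245 and 356 with array weights, and 78 to 109 and 83 to 134 when each array was left out. For other wild against other laboratory fins, 27 contigs passed with all 5 groups, 42 with Garonne against 300 ng/g PCBs and Cd, 71 with array weights and 67 with a minimum of 2 values. Among the tests per array, the difference in the share beyond 4, -0.07 percentage points, ran from -0.72 to 0.57 when each array was left out and was 1.22 for the share beyond 2; the differences in number of values and in spread ran from 21.5 to 106 contigs and from -0.17 to -0.04. The sign of each of the 8 contigs shown in every eel held in all settings that tested it. No paired analysis was possible because the control and Certes fish share no replicate numbers. Other background correction, a filter on dim probes and slide as a block were not run, since scanner columns carry no sample names. None of the 43 groups of values put to Dixon's test had an outlying eel. The test did not cover every group of values above, such as contig_2266 in Cd fins, which ran from -8.07 to 2.51.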
